A study of Drosophila melanogaster with 6 samples.

Results

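The stretch described here is a run of neighbouring genes on chromosome arm 3R of Drosophila melanogaster, from CG31115 to CG31436 in annotation order. It covers the region that gives fd96Ca, fd96Cb and the Cad96C cadherin genes their names. The stretch was picked because many of its genes had lower signal in roX1 roX2 mutant males than in controls, so the mutant minus control values chose it. All such values inside it are therefore a description, and no test of the stretch against the rest of the genome is given. The annotation lists 78 genes in the interval, of which 71 are protein-coding. A gene counted as a member if its probe set with the highest signal lay in the upper 50% of all probe sets by mean log2 signal over the 6 arrays, and 48 genes did, of 7801 measured in all. Another 16 genes had a probe set of their own below that limit, 3 shared theirs with another gene, and 11 were not in the probe table. At the limit stood Nup37 just inside (signal 29.3) and CG13658 just outside (26.6).

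The study compared male larvae in the third instar. The mutant group (3 arrays) was y+ w roX1- roX2-/Y, with SMC17A as the roX1 allele, and the control group (3 arrays) was y+ w roX1+ roX2-/Y. Both groups carry the roX2 mutation, so the control is wild type only for roX1, although the titles call it wt. Every Affymetrix Drosophila Genome 2.0 array read an independent RNA preparation from 50 whole larvae. Larvae were pooled, and the labels state nothing about the genotype of the third chromosome in either line. No probe set carried the name of roX1 or roX2 in the probe table, so the mutated genes were not analysed here. In whole larvae, fewer cells of a type and less RNA per cell cannot be told apart. With 3 arrays in each group, precision is limited by the number of arrays.

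The roX genes make noncoding RNAs that work within the male-specific lethal (MSL) complex, by which male flies raise transcription from their X. Arm 3R is part of an autosome and is not coated by the complex along its length. Neighbouring fly genes may be co-expressed, and tandem copies of a gene often form clusters. The stretch ends within such a cluster: 19 of its annotated genes belong to the ecdysteroid kinase-like (EcKL) family, whose best-known member, from the silkworm, phosphorylates ecdysteroids, the moulting hormones. The remaining members serve mostly unrelated functions, among them secretion, glycosylation, translation, nuclear transport and gametogenesis.

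Signals are given on a scale on which the median of the measured autosomal genes is 100 on each array. Log2 differences subtract the control from the mutant, and their SE comes from limma's fit over all 7801 genes. A gene is said to have fallen or risen where that fit gave a Benjamini-Hochberg adjusted p under 0.05. Across genes, Pearson correlations ran between 0.972 and 0.991 among mutant arrays and between 0.984 and 0.99 among control arrays, against 0.889 to 0.926 for arrays of different groups.

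Of the 48 members, 30 (62.5%) fell, 6 (12.5%) rose and 12 did not pass. Over all measured genes 32.4% fell and 23.1% rose, and on arm 3R 28.3% fell and 27.4% rose. The median log2 difference of the members was -0.45, a 27% lower signal, against -0.06 over all genes. It stood at -0.49, -0.46 and -0.41 on the 3 mutant arrays (SD 0.0401), against 0.02, 0.03 and -0.07 on the control arrays (SD 0.057), as deviations from the control mean. The 3 mutant medians lay below all 3 control medians. In 32 members every mutant array lay below every control array, and in 7 every mutant array lay above every control array, where the shares were 36.9% and 26.4% over all genes and 32.9% and 31.3% on arm 3R. All 30 members that fell were among the 32. Without mutant array 1, on which the members stood lowest, 28 members fell and the median was -0.47.

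**Figure D1:**
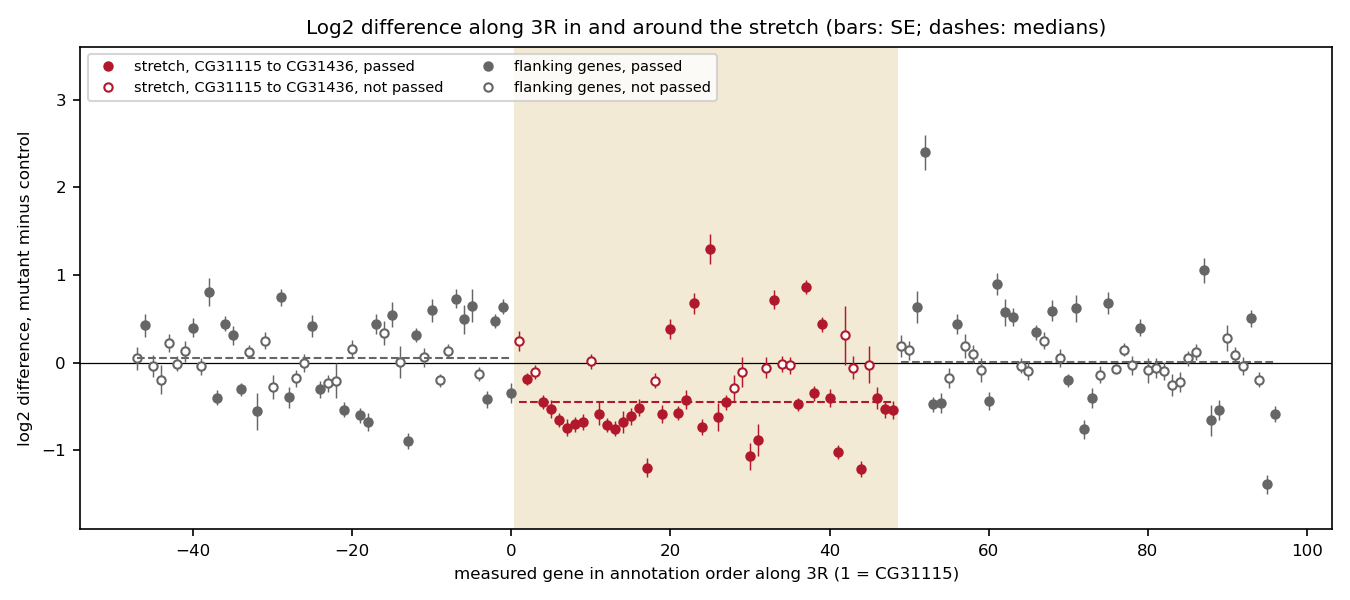
Log2 difference (mutant minus control, vertical axis) of the 48 members and of the 48 measured genes on either side, in annotation order along 3R. Filled circles passed at an adjusted p under 0.05, open circles did not, bars are SE, and dashed lines are medians, which lie at -0.45 in the stretch against 0.05 and 0.01 in the flanks.

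Most falls were moderate. The 30 members that fell had a median of -0.60, 16 of them fell by at least 1.5-fold (13.1% of all genes and 10.7% of those on 3R did so) and 4 by at least 2-fold, which is 8.33% of the members, against 3.47% of all genes and 3.3% of those on 3R. Between -0.8 and -0.4 stood 23 members: 10 between -0.8 and -0.6, and 13 between -0.6 and -0.4. These bins held 20.8% and 27.1% of the members, where 6% and 10.4% of all genes lay in them. The size of the difference did not follow the signal. The 24 members with higher signal had 14 falls and a median of -0.43, and the 24 with lower signal had 16 falls and a median of -0.53. Spearman's rho between mean signal and log2 difference was -0.000217 and Pearson's r -0.07 across the 48 members, which share the same 6 arrays. The spread between arrays of 1 group was close to that of other genes: the median residual SD was 0.117 on the log2 scale for the members and 0.123 for all genes.

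Along the stretch, falls were more numerous in the first 24 members than in the last 24. When the members were divided into 4 bins of 12 in annotation order, 9 fell and the other 3 did not pass in the bin from CG31115 to CG11836, and 9 fell and 2 rose in the bin from shams to Saysd1. The bin from CG31106 to CG11858 held 5 falls and 2 rises, and the bin from GlnRS to CG31436 held 7 falls and 2 rises. Bin medians were -0.56, -0.58, -0.20 and -0.38 in this order. The bin from CG31106 to CG11858 varied most between mutant arrays, at -0.49, -0.24 and -0.05, against 0.05, 0.00 and -0.05 on the control arrays. Its lowest control median coincides with its highest mutant median to that precision. In the other 3 bins every mutant median was below every control median. Differences between bins were not tested.

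**Figure D2:**
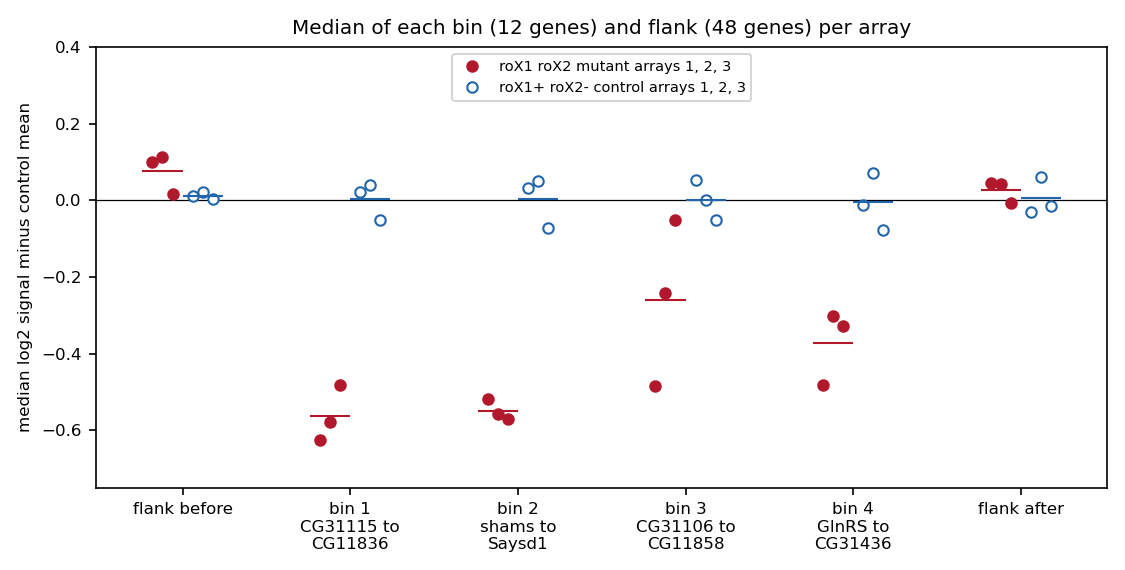
Median log2 signal relative to the control mean (vertical axis) on each array for the 4 bins of 12 members and for the 48 genes of each flank. Filled circles are mutant arrays, open circles control arrays, in the order 1, 2, 3, and lines are their means. The first 2 bins stand between -0.63 and -0.48 on all mutant arrays. Mutant array 1 is the lowest in every bin except the one from shams.

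From CG11791 to CG33096, 13 of 14 consecutive members fell, with a median of -0.67, where 32.4% of all genes fell. Those limits were set after the values were seen. The median was -0.64, -0.69 and -0.62 on the mutant arrays, against 0.03, 0.01 and -0.08 on the control arrays. Without these 14 genes, 17 of the remaining 34 members fell (50%), 6 rose (17.6%) and the median was -0.25. Over all genes 32.4% fell and 23.1% rose. The median of the 34 was -0.47, -0.24 and -0.19 on mutant arrays 1, 2 and 3, so it was lowest on mutant array 1. The exception among the 14 was Stt3B, a catalytic subunit of oligosaccharyltransferase, which attaches N-glycans to proteins in the endoplasmic reticulum. Its signal was 363, 361 and 400.2 on the mutant arrays against 351, 365 and 398 on the control arrays, a log2 difference of 0.01 (SE 0.083), and the groups overlapped. PQBP1, a polyglutamine-binding protein gene that directly precedes it and overlaps it in the annotation, fell by 0.68 (SE 0.092). CG11839, which carries the alias Znf830 and follows it, fell by 0.59, though its mutant mean of 27.5 was under the median probe set (28), so its size is uncertain.

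stac, which encodes a Munc13-4 type protein of secretory organelle fusion in the tracheal tubes, had a signal of 118, 127 and 143 on the mutant arrays against 228, 218 and 203 on the control arrays. Its groups did not overlap, and the difference was -0.74 (SE 0.098). Its other kept probe set gave -0.71. shams encodes a xylosyltransferase that modifies the Notch receptor. Its signal was 52.4, 52.3 and 55.7 in the mutant against 94.5, 90.6 and 85.3 in the control, a difference of -0.75 (SE 0.081), with all mutant arrays close together. veli, the fly Lin-7 scaffold protein gene, fell by 0.71, CG11836, which has the serine protease alias SP23, by 0.72, and CG11920 by 0.68. CG11836 was read by a probe set of the s_at type, a suffix that Affymetrix gives where probes may match further transcripts. The forkhead transcription factor gene fd96Cb fell by 0.61, and of the less studied genes CG11791 fell by 0.45, CG31109 by 0.53 and CG31111 by 0.65.

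CG33095 and CG33096 have the same start and end in the annotation but differed in size. CG33096 had 52.4, 39.7 and 44.7 in the mutant against 101, 104 and 107 in the control, a difference of -1.20 (SE 0.111). Its second probe set stood at -1.30. CG33095 had 293, 250.2 and 245 in the mutant against 385, 393 and 347 in the control (-0.52, SE 0.097). In both genes the groups did not overlap. A like pair is TTLL5 and CG31510, which share an annotated end. TTLL5 encodes a tubulin tyrosine ligase-like enzyme that modifies tubulin. It stood at -0.21 (SE 0.089) without passing, though every mutant array (138, 135 and 134) lay below every control array (161, 168 and 142). It passed without control array 3 (adjusted p = 0.0431, limma) and when only the upper 25% of probe sets by signal were kept (0.0485). CG31510 fell by 0.58 (SE 0.104). Of the members, 15 overlap another annotated gene and 9 of these fell, while 21 of the 33 without an overlap fell.

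The opening of the stretch was close to its surroundings. CG31115, its first gene, lies within the annotated span of its neighbour Ythdf. It stood above 0, with 41.1, 36.6 and 37.4 on the mutant arrays against 28.4, 34.4 and 34.5 on the control arrays (0.25, SE 0.114, not passed). Without rescaling the arrays it stood at 0.37 and passed (adjusted p = 0.033, limma). bai, a p24 cargo receptor gene of transport between endoplasmic reticulum and Golgi, had 790.0, 867 and 856 in the mutant against 977, 976 and 905 in the control. All its mutant values were lower, but the difference was only -0.19 (SE 0.067), and this call was lost under 12 of 15 alternative settings. CG11790 stood at -0.11 (SE 0.076) and did not pass.

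From TTLL5 to Saysd1 falls were interspersed with rises. vig2, a gene for an RNA-binding protein related to the RNA interference factor Vig, had 760.1, 682 and 599 on the mutant arrays against 487, 486 and 591 on the control arrays (0.38, SE 0.113). It rose, with a narrow gap between the lowest mutant and the highest control array, and the call was lost under 4 alternatives, without mutant array 2 (adjusted p = 0.057, limma), without control array 1 (adjusted p = 0.0681) or 2 (0.0788) and with the replicate number as a block (0.0529). Its probe set is also of the s_at type. lobo encodes a conserved flagellar protein of sperm. Its signal was 78.1, 67.8 and 62.1 in the mutant against 38.2, 45.3 and 46.6 in the control (0.68, SE 0.12), but a dimmer probe set below the limit stood at 0.06. Clbn, the fly NEMF, a factor of ribosome-associated quality control, fell by 0.57 (SE 0.078). danr, a transcription factor gene of eye and antenna development, fell by 0.43, a call lost without rescaling. Saysd1 had 73.2, 82.5 and 76.6 in the mutant against 134, 135 and 118 in the control (-0.74, SE 0.091), and its groups were well apart.

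CG31106 and CG31103 are neighbours that share an older gene model and moved in opposite directions. CG31106 had 41.6, 64.0 and 63.5 on the mutant arrays against 23.9, 23.1 and 20.8 on the control arrays. It rose by 1.30 (SE 0.174), though its control mean of 22.6 lay under the median probe set (28), so the size is uncertain. CG31103 had 39.1, 53.4 and 51.6 in the mutant against 87.4, 70.5 and 63.1 in the control, a fall of 0.62 (SE 0.158). Both genes were lowest on mutant array 1 among the mutant arrays.

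Next to them lie genes of the endoplasmic reticulum and the takeout group. Alg9, a mannosyltransferase gene for the N-glycan precursor, fell by 0.46 (SE 0.086). Sil1, a nucleotide exchange factor for the chaperone BiP, stood at -0.29 (SE 0.146) and did not pass. Jhbp7, named as a juvenile hormone binding protein, had 170, 268 and 238 in the mutant against 258, 251 and 209 in the control, so its groups overlapped (-0.11, SE 0.17, not passed). CG11854, the measured gene after takeout itself, had 599, 822 and 760.3 on the mutant arrays against 1815, 1502 and 1274 on the control arrays. That was a difference of -1.07 (SE 0.152), with no overlap although both groups were uneven.

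bam (bag of marbles), a gene of germline differentiation, had 38.7, 37.6 and 62.0 in the mutant against 82.2, 77.5 and 88.6 in the control. It fell by 0.88 (SE 0.185), with mutant array 3 nearer to the controls than the other 2 mutant arrays. Of 4 listed testis markers, Mst84Da rose (0.25), Mst87F (-0.01) and CG12699 (0.16) did not pass, and dj was not measured. The summed signal of the 3 measured was 2733 to 3125 on the mutant arrays against 2486 to 2796 on the control arrays, and these ranges overlapped. Their part in the bam and lobo values was not tested.

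After bam, the signal was mixed. Nup358, a nuclear pore gene whose protein forms the cytoplasmic filaments, had 140.3, 137 and 114 in the mutant against 83.5, 72.3 and 81.7 in the control and rose by 0.72 (SE 0.108). Nup37, a gene of the pore scaffold, stood at -0.06 (SE 0.124), CG11857 at -0.01 (SE 0.09) and Kdsr, a reductase gene of sphingolipid synthesis, at -0.03 (SE 0.094). These 3 genes had overlapping groups and did not pass. GlnRS, the glutaminyl-tRNA synthetase gene, had 116, 129 and 121 on the mutant arrays against 66.5, 66.6 and 67.3 on the control arrays. It rose by 0.87 (SE 0.079), and its control arrays were nearly identical. The genes on both sides of it fell: CG11858 by 0.48 (SE 0.078) and RIOK2, a kinase gene of small ribosomal subunit maturation, by 0.35 (SE 0.087).

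**Figure D3:**
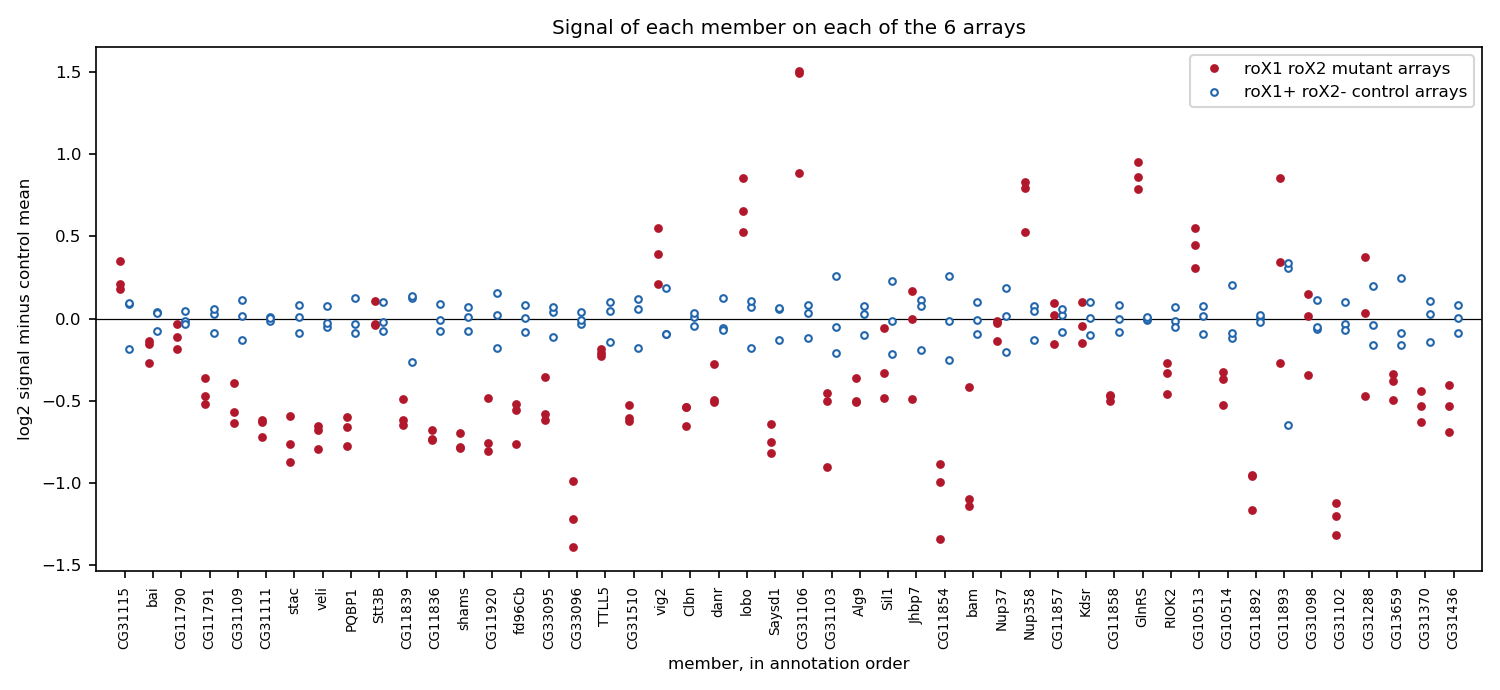
Log2 signal of each of the 48 members on each array, relative to the mean of the control arrays (vertical axis), in annotation order. Mutant arrays are filled and control arrays open. The groups do not overlap in 39 members, 32 with the mutant below and 7 with it above.

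The last members belong to the EcKL family. By the family names in the RefSeq table, the genome holds 54 EcKL genes, 28 of them in 1 uninterrupted run on 3R, and the end of the stretch at CG31436 divides that run into 19 genes inside and 9 after it. Of the 19, 10 were members, 6 lay under the signal limit, 2 are pseudogenes and 1 (CG11889) shared its probe set with another gene. Of the 10 members, 6 fell, 1 rose and 3 did not pass, and their median was -0.40. Over all genes 32.4% fell and 23.1% rose. The other 38 members of the stretch had a median of -0.47 with 24 falls and 5 rises, so the 2 groups of members had similar medians. Family members were grouped after their values were seen.

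CG31102 and CG33096 had falls of nearly the same size, and their order changed when mutant array 1 or control array 2 was left out. The signal of CG31102 was 84.7, 74.1 and 80.2 on the mutant arrays against 180.3, 197 and 176 on the control arrays, a difference of -1.21 (SE 0.089), or 2.32-fold lower, with the groups far apart. CG11892 had 402, 465 and 467 in the mutant against 901, 915 and 887 in the control (-1.02, SE 0.078), again without overlap, but its probe set is of the s_at type and the family holds close copies. Between them, CG11893 was uneven within both groups, with 86.2, 188 and 132 in the mutant against 66.4, 129 and 132 in the control (0.31, SE 0.333, not passed). The 1 rise was CG10513, which had 407, 482 and 449 on the mutant arrays against 332, 346 and 309 on the control arrays (0.44, SE 0.089). Its direct neighbour CG10514 fell by 0.41 (SE 0.104), with 426, 476 and 491 in the mutant against 707, 567 and 579 in the control. The last 3 genes fell by similar amounts: CG13659 by 0.40, CG31370 by 0.53 and CG31436 by 0.54. CG31098 (-0.06, SE 0.133) and CG31288 (-0.02, SE 0.209) had overlapping groups. The CG13659 call was lost without rescaling and without mutant array 1 (adjusted p = 0.0503, limma) or control array 2 (adjusted p = 0.0509).

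In the part of the same run after the stretch, 6 EcKL genes were measured, of which 2 fell, 2 rose and 2 did not pass, with a median of 0.16. CG10560 rose there by 2.40 (SE 0.2, adjusted p = 0.000119, limma), with 93.0, 147 and 124 in the mutant against 19.9, 28.9 and 20.2 in the control. All its control values were near or below the median probe set (28), so its size is uncertain. CG31087 rose by 0.64 (adjusted p = 0.018, limma), a call lost without mutant array 2 (adjusted p = 0.0662) or 3 (0.055) or control array 3 (0.0657). CHKov1 and CHKov2, a pair known from natural variation in resistance to insecticide and sigma virus, fell by 0.48 (adjusted p = 0.0022) and 0.47 (adjusted p = 0.00977, limma). The probe set of CHKov1 is of the s_at type. Elsewhere in the genome 12 EcKL genes were measured, with 2 falls, 4 rises and a median of -0.11. CG16898 rose by 2.91 (SE 0.317, adjusted p = 0.000274, limma), again with a low control mean of 13.4. Whether the EcKL genes inside the stretch differ from the others was not tested, since the stretch was chosen on these values. Over all genes 32.4% fell and 23.1% rose.

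**Figure D4:**
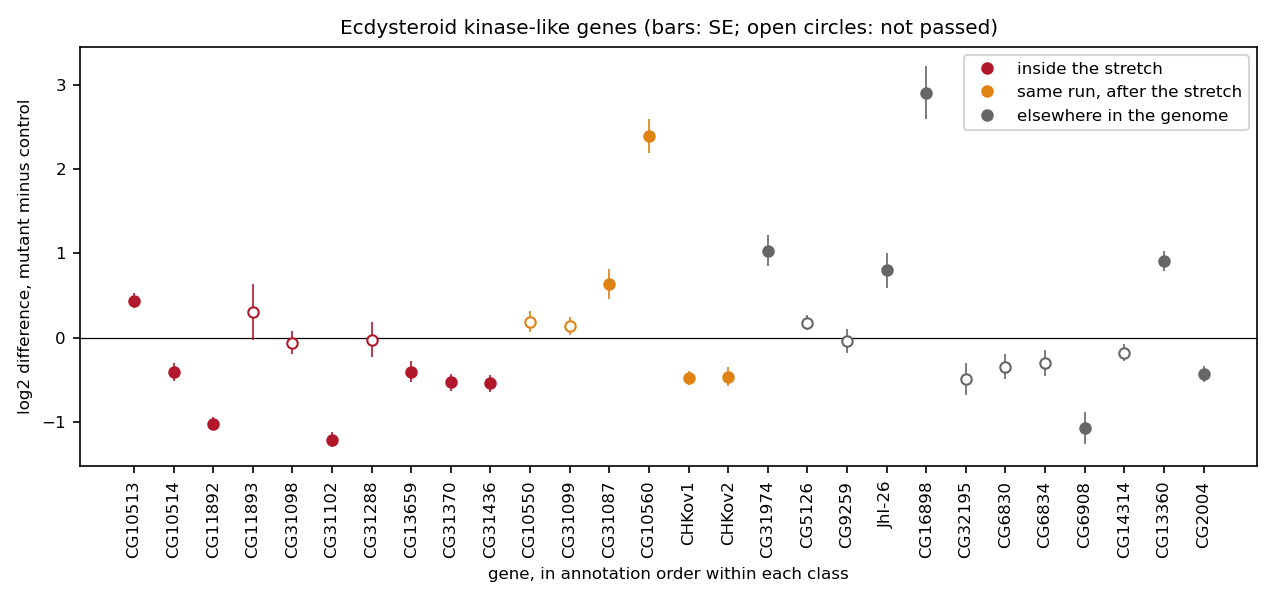
Log2 difference (mutant minus control, vertical axis, bars SE) of the 28 measured EcKL genes, by place. Of the 10 in the stretch 6 fell and 1 rose, of the 6 that follow in the same run 2 fell and 2 rose, and of the 12 elsewhere 2 fell and 4 rose. Over all measured genes 32.4% fell and 23.1% rose. Open circles did not pass.

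The flanks did not share the lower signal. Among the 48 measured genes before the stretch 11 fell (22.9%) and 16 rose, with a median of 0.05, and among the 48 after it 10 fell (20.8%) and 13 rose, with a median of 0.01. Medians by array were 0.10, 0.11 and 0.02 before the stretch and 0.05, 0.04 and -0.01 after it on the mutant arrays, against 0.01, 0.02 and 0.00 before and -0.03, 0.06 and -0.01 after on the control arrays. The limits were set with these values known, so the contrast with the flanks is part of the choice. The rest of arm 3R, 1891 genes, had a median of 0.02 with 27.4% falls, and the 1108 genes on X had a median of -0.29 with 48.2% falls.

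The nearest neighbours before the stretch moved both ways. Ythdf, the gene of a reader of methylated adenosine in RNA, stands directly before CG31115. It had 188, 149 and 162 on the mutant arrays against 191, 215 and 227 on the control arrays and fell by 0.35 (adjusted p = 0.0293, limma). That call was lost without mutant array 2 (adjusted p = 0.102, limma) or 3 (0.0714) and without control array 2 (0.0851) or 3 (0.104). It was also lost with all-gene scaling (adjusted p = 0.052), without rescaling (0.179) and with the replicate number as a block (0.0736). Smg6, the endonuclease gene of nonsense-mediated decay, rose by 0.64 (SE 0.081, adjusted p = 0.000521), with 274, 300.4 and 269.9 in the mutant against 189, 174 and 178 in the control. Hr96, a nuclear receptor gene of lipid and xenobiotic response, rose by 0.47, EMC6, a membrane insertase subunit gene, fell by 0.42, and beta4GalT7, a galactosyltransferase gene of proteoglycan synthesis, stood at -0.13 without passing. After the stretch, CG10550 (0.19) and CG31099 (0.14) did not pass, and the probe set of CG10550 is of the s_at type.

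The probe sets of the 16 genes under the signal limit gave a log2 difference below 0 in 10 (62.5%) and above 0 in 6, with a median of -0.30, and in 7 (43.8%) every mutant array was below every control array. Over all 7801 measured genes 55% were below 0 and 36.9% had every mutant array below. Those genes all lie above the limit, and the shares over all genes under it are not given here. With no signal filter, 36 of 64 genes of the stretch fell (56.2%) and 7 rose, where 25.6% of all genes fell and 17.7% rose. The genes under the limit with every mutant array below were CG13658 (-1.13), CG31300 (-1.09), Bili (-0.97), CG34027 (-0.69), Nepl16 (-0.62), CG31104 (-0.52) and 5PtaseI (-0.38). In CG11878 and CG13654 every mutant array was above every control array. CG11786, CG11891, CG13653, CG31097, Cad96Cb, dan and fd96Ca had overlapping groups. At these signals the size of a difference is uncertain, and the genes belong to the same contrast that chose the stretch.

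Marker genes of larval tissues were measured in both groups, where not measured means no kept probe set of their own. Of 4 fat body markers 3 were measured, 1 fell and 1 rose, and their summed signal was 6006 to 6773 in the mutant against 6676 to 6821 in the control. The 5 salivary gland glue genes all fell, with sums of 11810 to 12190 in the mutant against 14430 to 14580 in the control. Sgs4 fell by 0.68, but Sgs3, Sgs5, Sgs7 and Sgs8 fell by only 0.15 to 0.23. The control means of the latter were 2640 to 2906, below that of Sgs4 (3394). Taken over the arrays of both groups, which is a different measure, the highest mean signal of any gene was 3031. The median of all genes was -0.06 with rescaling and 0.07 without it, so the size of such small falls depends on the scaling. Of 4 midgut markers 3 were measured and 1 fell (sums 4468 to 4953 against 4585 to 5235), and of 4 muscle markers 2 were measured and 1 rose (624 to 1092 against 494.7 to 565). Of 4 nervous system markers only elav was measured, and it fell (26.8 to 36.2 against 38.6 to 47.8). The part of these tissues in the values of the stretch was not tested.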

How the data were processed

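The authors deposited 1 linear intensity for each probe set. GCOS 1.2 is named per the submitters' processing notes, and the summary algorithm was not stated there. Per the labels' design text the authors set the autosomal median to 100, but the deposited columns do not show that median (medians over probe sets 106 to 109 in the mutant and 102 in the control).

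Of 18952 probe sets, 183 were controls. The remaining 18769 were named through the platform's gene list, updated through RefSeq (Release 6 plus ISO1 MT), used only for names, family aliases and gene order. One gene was listed for 13647, several for 402 and none for 4720. Values at or below 0 took the array's lowest value above 0. The 9384 probe sets with the higher mean log2 signals (50%) were kept, the brightest per gene was used, and each array was scaled to an autosomal median of 100 (factors 0.246 to 0.262 in the mutant and 0.279 to 0.28 in the control).

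A linear model with group as its only term was fitted per gene in limma (version 3.58.1, under R 4.3.3), with an intensity trend in eBayes. The code was checked on simulated data. Flanks are as many measured genes as there are members, on each side. The members and lists were chosen with earlier results of these data known. Named genes were all members, with array values for the 8 largest falls, the 4 brightest and all members above 0 (and some others chosen after their values were seen), and 5 neighbours on each side. The main model did not use replicate numbers to pair the arrays. The planned search for promoter motifs was not run, and no sequence was used here.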

Additional observations from a re-analysis of the deposited data

How the results depend on the processing

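Under 15 alternatives (3 other scalings, an offset, 2 signal filters, every probe set, no trend, a replicate block, and each array left out), 27 of the 30 members that fell kept their call and sign wherever they were measured, and 5 of the 6 that rose did. bai, danr, CG13659 and vig2 lost theirs under some. On leaving out 1 array, falls numbered 28 to 30, rises 5 to 6 and the members' median lay between -0.49 and -0.44. In these settings 27.1% to 32.2% of all genes fell and 18.1% to 23.3% rose. The flank medians then lay between 0.024 and 0.13 before the stretch and between -0.0076 and 0.031 after it, and flank falls numbered 14 to 21. The members' median was -0.41 with all-gene scaling, -0.33 without rescaling and -0.29 with an offset of 50, which shrinks every difference. The median of all genes was -0.06 with rescaling and 0.07 without it, and the members' median minus that of all genes was -0.39 under both. Scaling by 1 factor per array shifts every log2 difference alike, so this last value could not differ between them. Without rescaling 21.9% of all genes fell and 30.8% rose. With the upper 25% by signal the stretch held 24 genes, of which 15 fell and 3 rose, where 36.5% of all genes fell and 22.6% rose. The flank before the stretch moved to 0.18 without rescaling and -0.14 with the upper 25%. The flank after it moved to 0.057 with all-gene scaling, 0.14 without rescaling, 0.063 with quantile scaling, 0.11 with the upper 25% and 0.074 with every probe set.

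Replicate numbers are shared by the groups, but same-numbered arrays did not deviate together (correlations -0.34, -0.06 and -0.39 across genes). With the replicate block 29 members fell and 5 rose, and over all genes 27.8% fell.

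CG31115 and TTLL5 gained calls in places: CG31115 rose without rescaling, and TTLL5 fell with the upper 25% and without control array 3. Other members that did not pass changed sign in places, and the cause was not tested. With all-gene scaling CG11857 stood at 0.033, Kdsr at 0.014 and CG31288 at 0.024. Without rescaling CG11790 stood at 0.017, Jhbp7 at 0.020, Nup37 at 0.069, CG11857 at 0.11, Kdsr at 0.095, CG31098 at 0.067 and CG31288 at 0.10. With quantile scaling CG11857 stood at 0.027, Kdsr at 0.0026 and CG31288 at 0.0074, and with the upper 25% Stt3B stood at -0.013. Leaving out 1 array gave Stt3B -0.035 to 0.063, Jhbp7 -0.24 to 0.085, Nup37 -0.16 to 0.036, CG11857 -0.068 to 0.060, Kdsr -0.097 to 0.027, CG11893 -0.014 to 0.60, CG31098 -0.16 to 0.083 and CG31288 -0.22 to 0.20.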

Other observations

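Probe sets listed for several genes, which entered no named result, also touched the stretch. The one shared by Mocs2A and Mocs2B, whose proteins form molybdopterin synthase, had 28.2, 28.8 and 29.4 on the mutant arrays against 42.2, 42.1 and 38.6 on the control arrays, a log2 difference of -0.50 with no overlap. The one shared by the EcKL genes CG11889 and CG11891 had 34.4, 47.7 and 37.3 in the mutant against 22.0, 22.8 and 18.3 in the control, a difference of 0.92. The one shared by CG14354 and CG11893 had 64.9, 63.3 and 63.2 in the mutant against 34.6 to 51.6 in the control (0.53). These values were not tested.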
